A study of Mus musculus with 12 samples.

Results

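The glutaredoxin and thioredoxin genes are 9 genes of thiol redox control: Glrx, Glrx2, Glrx3, Glrx5, Txn1, Txn2, Txnrd1, Txnrd2 and Txnip. They were taken by gene symbol from 28853 probe sets (called probes here) of a mouse expression array, 21789 of which carried 1 symbol. Where a gene has several probes, the one with the highest mean over the 12 arrays was to be used, but each of the 9 genes had 1 probe with its symbol alone, so no choice was made. Glrx was chosen by its measured difference between mTERT knock-out and wild-type liver, which was already known, and the other 8 genes as its family. For Glrx the mTERT comparison is therefore a description, without a test.

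The arrays measured liver RNA of 12 male C57BL/6J mice, 1 array for each animal and 3 animals in each of 4 groups. The mTERT KO group lacked Tert, the gene of the telomerase reverse transcriptase, and the mTR KO group lacked Terc, the gene of the telomerase RNA template. Both knock-outs (KO) were of the first generation (G1), and each line had its own wild-type (WT) littermates, numbered as sets 1, 2 and 3. The number in each sample title was read as the littermate set, which the labels do not say in words. All values by litter rest on that reading. Ages were matched, but the age itself and the exons removed are not given in the sources used here, and no treatment was applied.

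Glutaredoxins and thioredoxins are small proteins that reduce oxidized cysteines. Glutaredoxins draw electrons from glutathione and take glutathione off proteins, while thioredoxins are recharged by the selenium-containing thioredoxin reductases with electrons from NADPH and in turn recharge the peroxiredoxins. Separate sets of these proteins work in the cytosol and in mitochondria, and the monothiol glutaredoxins handle iron-sulfur clusters. Both systems are present in liver, whose metabolism produces peroxide.

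All values are log2 intensities, read as base 2 from their range of 2.62 to 13.83, so a difference of 1 is a doubling if that reading holds. Levels of different genes come from different probes and are not ranked against each other. The tissue label was checked on 7 measured hepatocyte genes, whose mean was 12.71 to 12.90 on every array, and albumin (Alb) read 13.45 to 13.61. The 95th percentile of 1035 olfactory receptor probes, which liver does not use, averaged 4.34 and serves as the background level, and all 9 genes lay above it on every array. Of the deleted genes, the Tert probe read 3.95 to 4.15 in mTERT KO, below background, and 4.13, 4.78 and 4.83 on the arrays labelled mTERT WT 1, 2 and 3. The value of the array labelled mTERT WT 1 thus lay below background and inside the KO range, against its label. In the other groups too the set 1 array had the lowest Tert value. It read 3.95 in mTERT KO, 4.71 against 4.90 and 5.02 in mTR KO, and 4.58 against 4.84 and 5.04 in mTR WT. Whether the low value of mTERT WT 1 goes with the genotype or with the set was not tested. The mTERT differences of the 9 genes are also given without that array. The Terc probe lay below background in all mTR arrays, KO and WT, so it checks nothing. The mean of 9 pancreas acinar genes was 7.11 to 11.48 on 5 arrays (numbers 1 of mTERT KO, mTERT WT and mTR KO, and numbers 2 of mTERT WT and mTR WT) and 3.84 to 4.01 on the others, and the mean of 12 skeletal muscle genes was 6.46 to 6.75 on the arrays labelled mTERT WT 1 and 3 against 3.85 to 4.47 elsewhere. The arrays of set 1 also stood apart from those of sets 2 and 3 in all 4 groups. In bulk liver, fewer cells of a type and less RNA per cell cannot be told apart.

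The promoters of 3 genes are shown: Glrx for its level in mTERT KO, Glrx5 as 1 of the 3 genes called between sets, and Txnip because genes of the factors that act on its promoter differed between sets. Of the calls between sets, that of Glrx5 had the largest adjusted p, and Glrx2, with the smallest, is not shown. All 9 genes had an entry in the RefSeq promoter table of build GRCm38.p6, which runs from 250 bases before to 50 bases after a start site. Each is printed 5′ to 3′ on its gene's strand.
Glrx, chr13:75839635-75839934, + strand: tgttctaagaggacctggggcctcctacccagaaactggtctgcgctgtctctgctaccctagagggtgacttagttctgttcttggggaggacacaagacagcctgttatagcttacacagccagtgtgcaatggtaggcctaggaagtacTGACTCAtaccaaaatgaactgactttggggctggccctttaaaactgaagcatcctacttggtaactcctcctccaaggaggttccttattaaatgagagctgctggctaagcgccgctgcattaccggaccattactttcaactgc
Glrx5, chr12:105032368-105032667, + strand: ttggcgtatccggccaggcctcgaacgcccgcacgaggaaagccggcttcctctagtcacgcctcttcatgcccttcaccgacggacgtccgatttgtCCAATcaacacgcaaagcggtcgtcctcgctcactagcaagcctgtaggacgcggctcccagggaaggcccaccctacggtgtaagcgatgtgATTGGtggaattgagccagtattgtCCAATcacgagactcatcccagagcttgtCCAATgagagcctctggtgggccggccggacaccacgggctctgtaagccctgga
Txnip, chr3:96557707-96558006, + strand: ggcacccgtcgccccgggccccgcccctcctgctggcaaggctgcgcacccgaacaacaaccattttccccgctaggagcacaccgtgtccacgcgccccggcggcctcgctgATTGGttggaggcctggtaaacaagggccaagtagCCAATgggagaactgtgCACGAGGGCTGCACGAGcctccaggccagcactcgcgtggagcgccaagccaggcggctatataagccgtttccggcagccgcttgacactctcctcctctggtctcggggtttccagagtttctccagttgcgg
The capitals in Glrx mark TGACTCA, the letters of an AP-1 site, which ends 91 bases before the start site. In Glrx5 they mark 4 CCAAT boxes, and in Txnip a pair of CCAAT boxes followed by a 17-letter match, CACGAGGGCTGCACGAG. CCAAT boxes are known for binding the NF-Y complex, and the longer match has the form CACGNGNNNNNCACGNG, the paired boxes of a carbohydrate response element through which glucose-sensing factors are known to act on Txnip. Both strands were searched, and no marked motifs overlap each other. Among 32851 promoter windows of this length, 5.2% held TGACTCA, 37.4% held CCAAT and 0.0487%, or 16 windows, held the paired form. The antioxidant response element core TGACNNNGC, present in 12.4% of windows, was found at 1 of the 3 start sites of Txnrd1 and at none of the other 8 genes. These are matches of letters and not measured sites.

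Glrx encodes cytosolic glutaredoxin, the main enzyme that takes glutathione off cytosolic proteins. The mTERT KO mice of sets 1, 2 and 3 read 8.29, 8.13 and 8.33, and their WT littermates 7.86, 7.27 and 7.22. The mTR KO mice read 7.64, 7.44 and 7.51, and their littermates 7.47, 7.60 and 7.64. The 3 mTERT KO arrays were the highest of the series and did not overlap with any of the other 9 arrays, which lay between 7.22 and 7.86. The mTERT KO mean of 8.25 ± 0.104 (SD, n = 3) stood 0.80 above the WT mean of 7.45 ± 0.356 (SD, n = 3), with a moderated standard error (SE) of 0.154, a 1.74-fold difference. By litter the KO was higher by 0.43, 0.86 and 1.11. Groups did not overlap at 4.33% of the 20197 probes tested (2.47% with KO higher, 1.86% with KO lower), and since Glrx was chosen for this difference its place among them is no evidence.

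The smallest litter difference of Glrx belonged to set 1, where the WT array was the highest WT array of the series at 7.86. That array, labelled mTERT WT 1, is the one whose Tert probe read 4.13, inside the KO range. It also had the highest mean of 10 acute phase genes, 10.73 against 8.36 to 9.16 elsewhere, besides muscle and pancreas transcripts, and the part of these in its Glrx level was not tested. Without it the difference in the mTERT line was 1.00, and leaving out any other single array gave 0.68 to 0.86. The pancreas means of the 3 KO arrays were 10.04, 3.84 and 4.01 and their muscle means 3.95 to 4.47. Without the 2 arrays high in muscle genes the difference was 0.98. That leaves mTERT WT 2, with a pancreas mean of 9.13, as the only mTERT WT array. Without the 5 arrays high in pancreas genes the difference was 1.01. That leaves mTERT WT 3, with a muscle mean of 6.46, as the only one. Neither fit keeps a WT array of this line that is low in both, and the part of these transcripts was not tested.

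In the mTR line Glrx did not differ beyond the spread: the KO mean of 7.53 ± 0.104 (SD, n = 3) and the WT mean of 7.57 ± 0.0874 (SD, n = 3) differed by −0.04 (SE 0.154, 95% interval −0.38 to 0.30), with an adjusted p of 1 by limma. The interval lies below the 0.80 described in the mTERT line. Glrx was chosen for that value, so this is no test between the lines. The groups overlapped, and the KO was higher in 1 of 3 litters, by 0.17, and lower in the others, by 0.16 and 0.13. The fitted difference between both KO effects was −0.84 (SE 0.218), given without a test since it holds the mTERT values. In the order of group means mTERT KO stood first, followed by mTR WT, mTR KO and mTERT WT, and the last 3 had overlapping ranges.

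**Figure D1:**
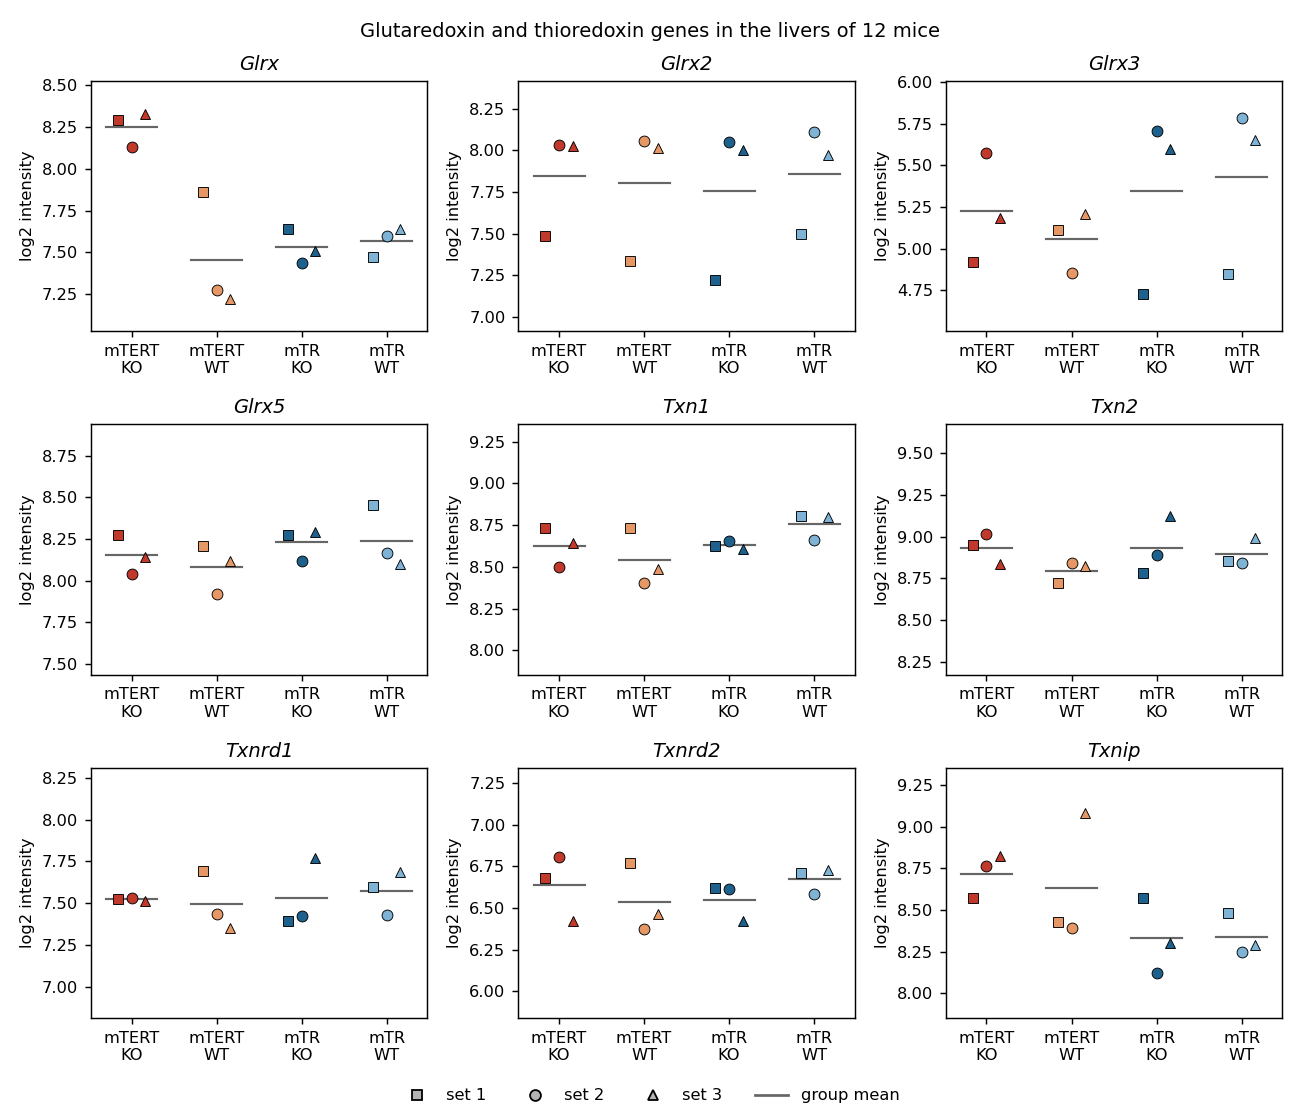
Log2 intensity of the 9 genes on each of the 12 arrays, by group (x axis), with 1 marker per mouse, its shape giving the set number, and a line at each group mean; every panel has the same span. Glrx is high on the 3 mTERT KO arrays, and Glrx2 is low on the set 1 array of each group.

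Glrx2 encodes the glutaredoxin of mitochondria and the nucleus, which can itself hold an iron-sulfur cluster. The mTERT KO mice read 7.49, 8.03 and 8.02 and their littermates 7.34, 8.06 and 8.01. The mTR KO mice read 7.22, 8.05 and 8.0, and their littermates 7.50, 8.11 and 7.97. The first array of each group, that of set 1, was the low one, and the other 8 arrays lay within 7.97 to 8.11. KO minus WT was 0.04 (SE 0.27) for mTERT and −0.10 (SE 0.27) for mTR. With the litter as a block the standard error was 0.0912 for both, and neither difference was called (adjusted p 0.997 and 0.999 by limma).

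Glrx3 encodes a cytosolic monothiol glutaredoxin that helps distribute iron-sulfur clusters. The mTERT KO mice read 4.92, 5.57 and 5.18 and their littermates 5.11, 4.86 and 5.21. The mTR KO mice read 4.73, 5.70 and 5.60, and their littermates 4.85, 5.78 and 5.65. The groups overlapped in both lines. The largest litter difference was 0.72 in set 2 of the mTERT line, where the WT array was at the level of the set 1 arrays, and in the mTR line the KO was lower in 3 of 3 litters by 0.05 to 0.12. A second probe names Glrx3 together with a pseudogene and was not used.

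Glrx5, the mitochondrial monothiol glutaredoxin needed for iron-sulfur cluster assembly, ranged from 7.92 to 8.46 over the 12 arrays. In the mTERT line the KO was higher in 3 of 3 litters, by 0.02 to 0.12, a mean difference of 0.07 (SE 0.122). In the mTR line the difference was −0.01 (SE 0.122), with litters on either side of 0.

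Of the thioredoxins, cytosolic Txn1 read 8.62, 8.65 and 8.61 in the mTR KO mice, with 8.81, 8.66 and 8.80 in their littermates. The KO arrays were all lower, with a gap of 0.01 between the groups in set 2, and the difference of −0.13 (SE 0.107, 95% interval −0.36 to 0.11) did not pass the test (adjusted p of 1 by limma). It was the single one of the 9 genes whose groups did not overlap in the mTR line, where 4.48% of all tested probes did not (1.84% with KO higher, 2.64% with KO lower). For mTERT, Txn1 read 8.73, 8.50 and 8.64 in the KO mice against 8.74, 8.40 and 8.49 in WT, a difference of 0.08 (SE 0.107), and the groups overlapped.

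Txn2, the mitochondrial thioredoxin, read 8.95, 9.02 and 8.84 in the mTERT KO mice, with 8.72, 8.84 and 8.83 in their littermates. The KO mouse was the higher one of each litter, by 0.23, 0.17 and 0.01. The ranges met at 8.84, and the difference of 0.14 (SE 0.107) did not pass the test. In the mTR line it differed by 0.03 (SE 0.107).

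The reductases that recharge them showed no difference beyond their spread. Txnrd1, the cytosolic reductase gene and a known NRF2 target, read 7.52, 7.53 and 7.52 in the mTERT KO mice, against 7.69, 7.43 and 7.35 in WT. The 3 KO arrays lay within the WT range, and the difference was 0.03 (SE 0.128); in the mTR line it was −0.04 (SE 0.128). Txnrd2, the mitochondrial reductase gene, ranged from 6.37 to 6.81 over all arrays and differed by 0.10 (SE 0.131) for mTERT and −0.12 (SE 0.131) for mTR, with groups overlapping in both.

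Txnip encodes an alpha-arrestin that binds and inhibits thioredoxin and is induced by glucose. The mTERT KO mice read 8.57, 8.76 and 8.82 and their littermates 8.43, 8.39 and 9.08. The mTR KO mice read 8.57, 8.13 and 8.30, and their littermates 8.48, 8.25 and 8.29. The highest array of the series, mTERT WT 3, was a wild-type, and it set the wide WT spread of 0.388 (SD, n = 3). KO minus WT was 0.08 (SE 0.181) for mTERT and −0.01 (SE 0.181) for mTR. Without mTERT WT 3 the mTERT difference was 0.31. Between the WT groups Txnip was 0.29 lower in the mTR line (SE 0.181), a value that did not pass the test and was −0.07 without mTERT WT 3.

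Over the 9 genes, limma called 0 in each KO comparison, as it did for all 20197 probes (0% called; before adjustment p was under 0.05 for 283 probes with mTERT and 195 with mTR). Among the 8 genes besides Glrx, differences ran from 0.03 to 0.17 in the mTERT line, with a smallest unadjusted p of 0.221, and from −0.13 to 0.03 in the mTR line, with a smallest unadjusted p of 0.262. All 9 were above 0 in the mTERT line, at a median of 0.0848 beside 0.0121 for all tested probes, and 8 of 9 were below 0 in the mTR line, at a median of −0.0421 beside −0.0103. Without the array labelled mTERT WT 1 limma called none of the 8 genes besides Glrx with mTERT, Glrx2 (−0.19, SE 0.27) and Txnip (−0.02, SE 0.198) were below 0, and the other 6 lay between 0.10 for Txn2 and 0.22 for Txnrd2. These 9 values share the same arrays, so their common sign is not 9 separate observations. Intervals lay within a 2-fold change for 9 of 9 genes in the mTR line and for 8 of 9 in the mTERT line, where Glrx reached 1.14. The difference between both KO effects was called for 0 of 9 genes and 0 of 20197 probes (0%; 293 before adjustment). Between the WT groups limma called 0 of 9 genes and 0 of 20197 probes (0%; 525 before adjustment). None of the 9 was without overlap there, as 5.95% of probes were (3.61% higher and 2.33% lower for mTR WT), and Txn1 had the smallest p of the 9, with 0.21 more in the mTR line (SE 0.107, 95% interval −0.02 to 0.45).

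**Figure D2:**
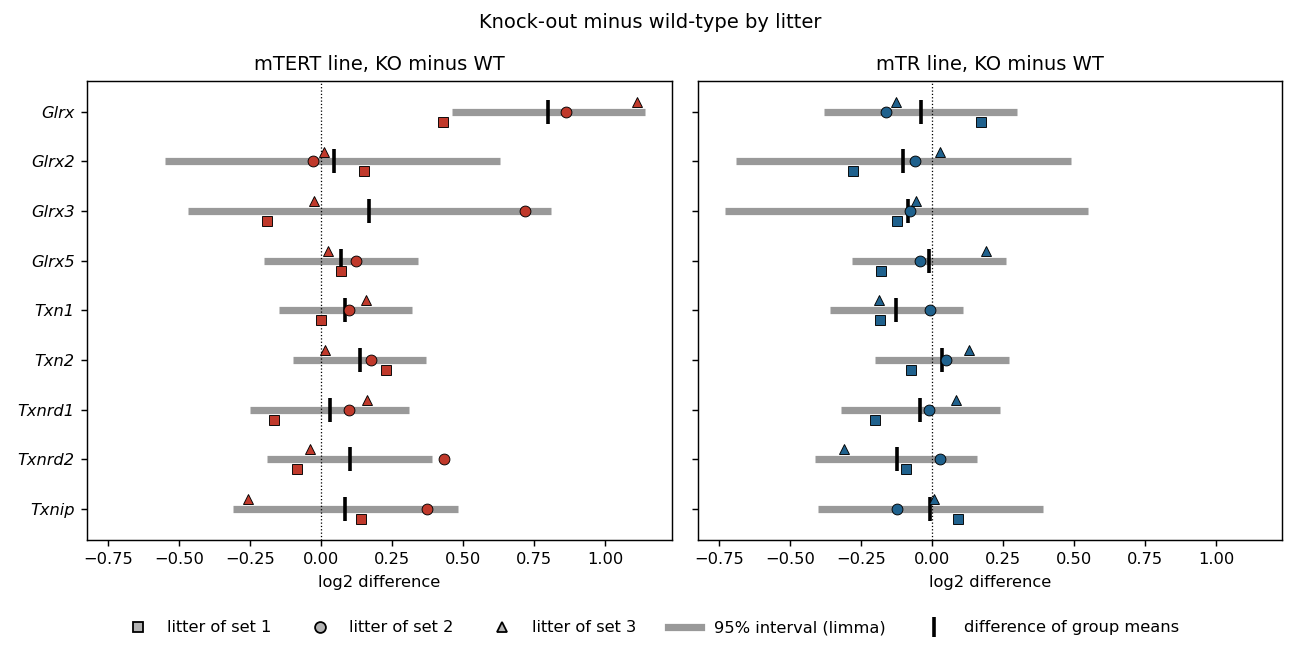
KO minus WT (log2, x axis) of each gene (y axis) in the mTERT and mTR lines, with a marker per litter, a bar for the limma 95% interval and a tick at the difference of group means. The litters of Glrx lie at 0.43 to 1.11 in the mTERT line and at −0.16 to 0.17 in the mTR line; every other gene's interval includes 0 in both lines.

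Calls among these genes came from the comparison of littermate sets. Against sets 2 and 3, with the group means removed, set 1 was lower for Glrx2 and Glrx3 and higher for Glrx5. Glrx2 averaged 7.39 ± 0.132 (SD, n = 4) in set 1 and 8.03 ± 0.0414 (SD, n = 8) in sets 2 and 3, a difference of −0.65 (SE 0.0633, adjusted p 1.64e-05 by limma) with no overlap and with the same sign in 4 of 4 groups. Glrx3 averaged 4.90 ± 0.16 and 5.45 ± 0.325, a difference of −0.54 (SE 0.144, adjusted p 0.0112 by limma) that was below 0 in 3 of 4 groups and 0.08 in mTERT WT. Glrx5 averaged 8.30 ± 0.107 and 8.11 ± 0.106, a difference of 0.19 (SE 0.0676, adjusted p 0.0421 by limma), above 0 in 4 of 4 groups. For the other 6 genes the differences of −0.09 to 0.17 did not pass the test.

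So 3 of 9 genes were called, where limma called 38.2% of all tested probes, and 1 of 9 did not overlap, where 23% of probes did not (10.4% higher and 12.6% lower in set 1). The share is near the background, so it is not a result about these genes as a family. Set 1 holds 2 litters and sets 2 and 3 hold 4, and littermates are not independent. With the litter as a random replicate block Glrx5 had an adjusted p of 0.0554 by limma, while Glrx2 (2.92e-05) and Glrx3 (0.0148) were still called. Glrx3 had an adjusted p of 0.0652 by limma without mTR KO 1 and 0.0623 without mTR WT 1, and Glrx5 lost its call in 8 of the 12 fits that left out 1 array. Pancreas means were above 7 on 3 of the 4 set 1 arrays. The fourth, mTR WT 1, had a pancreas mean of 3.89 and read 7.50 for Glrx2 and 4.85 for Glrx3. For Glrx2 it lay below all 8 arrays of sets 2 and 3. For Glrx3 it was level with mTERT WT 2 at 4.86, itself high in pancreas genes, and below the other arrays of those sets. The other pancreas-high array of those sets, mTR WT 2, had the highest Glrx3 value of the series at 5.78. Without the 5 arrays high in pancreas genes, which leaves mTR WT 1 as the only array of set 1, the differences were −0.47 for Glrx2, −0.80 for Glrx3 and 0.36 for Glrx5, and limma called none of the 9 genes, with 0.116 as the adjusted p of Glrx3 and 272 probes called in all. The sources used here say of a set only that its WT and KO mice were littermates, and its arrays were read from the title numbers.

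**Figure D3:**
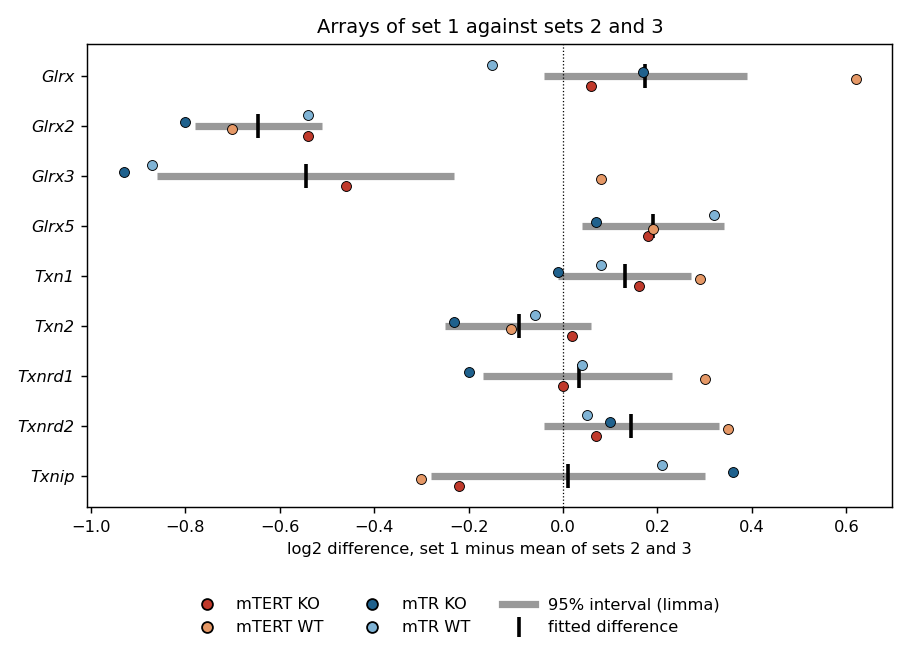
Set 1 minus the mean of sets 2 and 3 (log2, x axis) for each gene (y axis), with a marker per group, a bar for the limma 95% interval and a tick at the fitted difference. Glrx2 lies between −0.80 and −0.54 in all 4 groups, and the interval of Glrx5 runs from 0.04 to 0.34.

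Partners of these genes were taken from 8 lists, chosen with earlier results of these data known: relatives of thioredoxin, peroxiredoxins with their repair enzymes, glutathione synthesis, NRF2 targets, glucose sensing, iron-sulfur assembly, selenoprotein synthesis and ribonucleotide reductase. Of 106 genes besides the 9, 98 were measured and 96 tested. In both KO comparisons limma called 0 of the 96, as it called 0% of all probes, and 1 of the 96 had an unadjusted p under 0.05 in each. KO and WT did not overlap for 3 of 96 with mTERT and 5 of 96 with mTR, shares near the 4.33% and 4.48% of all tested probes. Values with the smallest p in the mTERT line were the malic enzyme gene Me1 of the NRF2 list at 0.35 (SE 0.158), the methionine sulfoxide reductase gene Msrb2 at 0.27 (SE 0.133) and Txnl4b, a thioredoxin-like splicing factor gene, at 0.25 (SE 0.132). In the mTR line they were Hscb, a co-chaperone gene of iron-sulfur assembly, at −0.24 (SE 0.0934), Rrm2, a subunit gene of the reductase that thioredoxin and glutaredoxin supply with electrons, at −0.25 (SE 0.118), and Txnl1 at −0.22 (SE 0.113). Gclc, the catalytic subunit gene of glutathione synthesis, differed by 0.17 (SE 0.142) in the mTERT line. None of these passed the adjusted test.

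Between sets, 45 of the 96 partner genes were called by limma, 21 higher and 24 lower in set 1, or 46.9% beside 38.2% of all tested probes. Without the 5 arrays high in pancreas genes, which leaves 1 array in set 1, limma called 1 of the 96, the glucose-sensing gene Mlxipl, and without the 2 arrays high in muscle genes it called 20 higher and 20 lower. Among the 45 genes called with all arrays were some of the peroxiredoxin list and some of iron-sulfur assembly. In the peroxiredoxin list only 2 of 9 genes were called, where limma called 38.2% of all tested probes. The genes named next had the smallest p of their lists. They are examples, and not a result about the partners of thioredoxin or of the monothiol glutaredoxins as a set. Prdx3, the mitochondrial peroxiredoxin that Txn2 recharges, read 9.99 to 10.04 in set 1 and 10.26 to 10.44 in sets 2 and 3, with no overlap. Its difference was −0.34 (SE 0.0557, adjusted p 0.000571 by limma), and the endoplasmic reticulum peroxiredoxin gene Prdx4 was lower too, by −0.44 (SE 0.0829, adjusted p 0.0016 by limma); these were the called ones of 9 tested in their list. Without the pancreas-high arrays Prdx3 differed by −0.36 (SE 0.164, adjusted p 0.326 by limma). Iron-sulfur assembly had 3 of 17 genes higher and 5 lower in set 1: Iscu, the scaffold on which clusters form, was 0.73 higher (SE 0.0668) and Ciapin1, a cytosolic assembly factor gene, 0.55 higher (SE 0.088), while Hspa9, the mitochondrial chaperone that moves clusters off the scaffold, was 0.38 lower (SE 0.0623). Thioredoxin relatives were called in 10 of 19 (2 higher, 8 lower), among them the endoplasmic reticulum members Tmx3, with a difference of −0.80 (SE 0.0668), and Pdia3, with −0.59 (SE 0.0852).

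Of the 8 lists, the glucose-sensing list that surrounds Txnip had the median set difference farthest from 0. In it 8 of 13 genes were higher in set 1 and 3 lower by limma, at a median of 0.43 beside −0.023 for all tested probes, where 17.1% of probes were called higher. Arrdc4 of this list went the other way, at 5.01 to 5.39 in set 1 against 5.46 to 6.00 in sets 2 and 3. Mlxipl encodes ChREBP, the glucose-sensing factor of liver, and read 8.80 and 8.51 in the KO and WT mouse of the mTERT line's set 1 and 8.43 and 8.86 in those of the mTR line, against 7.67 to 8.01 in the other 8. Mlx, its obligate partner, was 0.59 higher in set 1 (SE 0.0748, adjusted p 0.000102 by limma) and Mlxip, a second glucose-sensing factor gene, 0.68 higher (SE 0.0705, adjusted p 2.55e-05 by limma). Both were above every array of sets 2 and 3, as Mlxipl was, though Mlxip, at 4.27 to 4.54 in sets 2 and 3, was there close to background. Txnip, whose promoter above holds the paired boxes these factors bind, did not differ between sets beyond its spread: 8.43 to 8.57 in set 1 lay inside the 8.13 to 9.08 of sets 2 and 3, a difference of 0.01 (SE 0.131, 95% interval −0.28 to 0.30). The differences of Txnip and of the factor genes come from different probes and were not compared with each other. Whether the factors act on Txnip in these livers was not tested. On mTR WT 1, the set 1 array with a pancreas mean of 3.89, Mlxipl was the highest of the series at 8.86. Without the 5 pancreas-high arrays the differences were 0.86 for Mlxipl (adjusted p 0.0433 by limma), 0.65 for Mlxip (0.15) and 0.41 for Mlx (0.269).

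**Figure D4:**
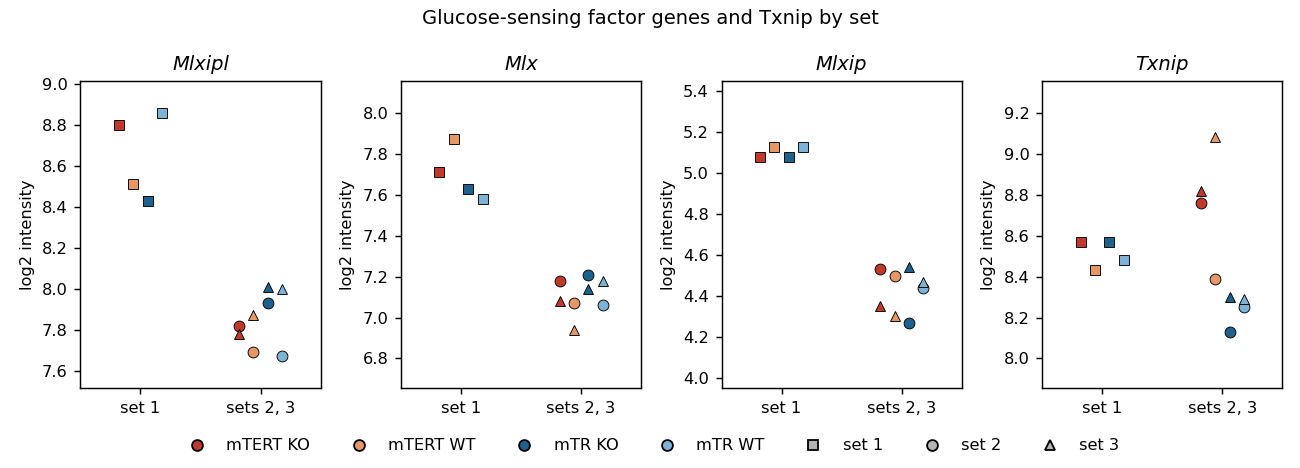
Log2 intensity (y axis) of the factor genes Mlxipl, Mlx and Mlxip and of Txnip in set 1 and in sets 2 and 3 (x axis), 1 marker per mouse with colour for the group and shape for the set; every panel has the same span. The 4 set 1 arrays are above all others for the 3 factor genes and within the range of the others for Txnip.

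Among themselves the 9 genes did not move as 1 block. Over the 12 arrays, which share litters and sets, Pearson's r between pairs ran from −0.63 for Glrx2 with Glrx5 to 0.69 for Glrx2 with Glrx3, the 3 genes that the set parted. With the means of group and set removed these became 0.73 and −0.02. On those values Txnip ran against Txnrd1 (r = −0.70) and Txn1 (r = −0.68). With group and set removed, few independent values are left in 12 arrays, and these coefficients are descriptions.

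The genes whose levels followed Glrx most closely over the 12 arrays, among 14158 others, were St8sia1 (r = 0.86), whose values of 3.87 to 4.20 lay below background, Rrp36 (r = 0.86) and Cgrrf1 (r = 0.82). The last 2 spanned 5.63 to 5.93 and 6.87 to 7.21, against 7.22 to 8.33 for Glrx. With group and set means removed they were Ska1 (r = 0.98), near background at 3.93 to 4.37, 1700123O20Rik (r = 0.97) and Dusp8 (r = 0.97). For Txnip the most alike were Ncoa7 (r = 0.92), which at 3.94 to 4.42 hardly left background, Mov10 (r = 0.91) and Arl2bp (r = 0.91), and with group and set means removed Usp18 (r = 0.99), Ms4a6b (r = 0.98) and Tmem11 (r = 0.98). Mov10 and Usp18 were highest on mTERT WT 3, at 7.21 and 6.98, the array on which Txnip was highest at 9.08. For Txnrd1 they were Dnaja2 (r = 0.82), an olfactory receptor pseudogene (r = 0.80) and Bola2 (r = 0.79), and after removal of those means Cltb (r = 0.99), Nat8f5 (r = 0.98) and Trim33 (r = 0.98). All of these were picked as the highest of 14158 coefficients over 12 arrays, so high values are no evidence of a link. The first list for Glrx also holds the mTERT KO difference for which Glrx was chosen.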

How the data were processed

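Per the labels, liver RNA was extracted with Trizol, cleaned on RNeasy columns, amplified once with random primers and biotin-labelled. The values are log2 intensities deposited by the authors in 1 series matrix; per the submitters' processing notes GCOS 1.4, Affymetrix Expression Console and PLIER were used, with no role or order given. The log base (read as 2 from the range), normalization, any constant and any filter are not given in the sources used here. Array medians were 4.37 to 4.43 and correlations between arrays 0.97 to 0.996; the number of arrays limits the precision. Names came from the platform annotation, updated through Entrez identifiers to RefSeq (GRCm38.p6) for 21698 of 21789 probes with 1 symbol; 1621 probes had several symbols and 5443 none. The build behind the values is not given, so RefSeq served for names, and coordinates are printed only with its own promoter sequences.

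Differences were fitted with limma 3.58.1 in R 4.3.3 (lmFit, eBayes): group means over all 12 arrays, plus an indicator for set 1 in the set comparison. The test took the 20197 probes whose mean reached the 30th percentile (3.898), two-sided, with Benjamini-Hochberg adjustment over these and a threshold of 0.05, in 5 comparisons. The members and lists were chosen with earlier results of these data known. Named are the 9 genes, Tert, Terc, up to 3 genes per list and comparison with the smallest p (some of them only), and the 3 genes most alike to Glrx, Txnip and Txnrd1. One result is not reported here. The series text calls each set littermates, so the litter was used as a block in an alternative fit. With group means removed, same-numbered WT and KO arrays had correlations of 0.69, 0.13 and 0.62 for mTERT and of 0.46, 0.15 and 0.55 for mTR. The difference of set 1 was left in these values, so they cannot show that same-numbered mice were littermates. The fitting code was tested on simulated data.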

Additional observations from a re-analysis of the deposited data

How the results depend on the processing

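Of the alternatives that kept all 12 arrays, quantile normalization turned Glrx5 (0.01) and Txnip (0.01) above 0 in the mTR comparison, array weights turned Glrx5 there (0.05), and median centring turned Txnip between sets (−0.01) and ended the call of Glrx5 (0.17, adjusted p 0.0685 by limma). With the litter as a replicate block, limma called 0 probes in both KO comparisons; the random block ended the call of Glrx5 between sets (0.19, adjusted p 0.0554 by limma) and no other call.

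Without set 1 limma called 1 probe in each KO comparison, and values turned for Glrx2 (−0.01) with mTERT, Glrx5 (0.07) and Txnrd1 (0.04) with mTR, and Glrx5 (0.00) in the difference of effects. Chosen after seeing the data, leaving out the 5 arrays high in pancreas genes gave 72 probes called with mTERT, 38 in the difference of effects, 97 between WT groups, and 272 probes and 0 of the 9 genes between sets, where 1 of 96 partner genes was called. Values turned there for Glrx5 (−0.03) and Txnip (−0.29) with mTERT, Glrx2 (0.29) and Glrx3 (0.40) with mTR, Glrx2 (0.28), Glrx3 (0.23) and Txnip (0.12) in the difference of effects, Glrx2 (−0.28) between WT groups, and Glrx (−0.17), Txnrd1 (−0.09) and Txnrd2 (−0.02) between sets. Without the 2 arrays high in muscle genes, also chosen after seeing the data, Glrx2 turned with mTERT (−0.21), in the difference of effects (0.11) and between WT groups (−0.20), as did Txnrd1 between sets (−0.05), and Glrx5 lost its call between sets (adjusted p 0.0889 by limma). These fits have fewer samples, and the fit without the muscle-high arrays leaves mTERT WT 2 as the only mTERT WT array. The cause was not tested.

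Leaving out 1 array at a time gave 0 to 41 probes called with mTERT, 0 to 30 in the difference of effects and 0 to 42 between WT groups, the upper ends all without mTERT WT 2. It gave 0 to 1 of the 9 genes called with mTERT, the 1 being Glrx without the array labelled mTERT WT 1, which is no test since Glrx was chosen on this comparison, and 1 to 3 between sets, the fewest without mTR WT 1. Values that changed sign ranged, with mTERT, from −0.19 to 0.22 for Glrx2, −0.01 to 0.32 for Glrx3, −0.01 to 0.13 for Glrx5, −0.04 to 0.13 for Txnrd1 and −0.04 to 0.31 for Txnip. With mTR they ranged from −0.09 to 0.01 for Glrx, −0.28 to 0.17 for Glrx2, −0.38 to 0.22 for Glrx3, −0.08 to 0.10 for Glrx5, −0.06 to 0.11 for Txn2, −0.16 to 0.03 for Txnrd1 and −0.13 to 0.09 for Txnip. In the difference of effects they ranged from −0.33 to 0.12 for Glrx2, −0.54 to 0.05 for Glrx3, −0.15 to 0.03 for Glrx5 and −0.32 to 0.03 for Txnip, between WT groups from −0.18 to 0.24 for Glrx2, and between sets from −0.05 to 0.11 for Txnrd1 and −0.10 to 0.12 for Txnip. None of the values that changed sign had been called. Another probe per gene was not tried: 8 genes have none, and the second probe of Glrx3 also names a pseudogene, and a fit on only the compared groups was not run for the difference of effects, which needs all 4. With 3 arrays a group, the 95% intervals of the 8 genes besides Glrx reach up to 0.81 with mTERT, the widest being that of Glrx3.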
